A study of Mus musculus with 2 samples.

Results

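The mitochondrial ribosomal proteins are the nuclear-encoded proteins that, with mitochondrial ribosomal RNA, make up the ribosome inside mitochondria. The genes described here are the protein-coding genes named Mrpl or Mrps followed by a number that had at least 10 reads over both libraries, and 76 of 35275 genes in the table were members. AML12 is a non-transformed hepatocyte line from the liver of a male CD-1 mouse, given as 3 months old, and the line carries a human TGF-alpha transgene in both conditions. Control cells (titled Young) had no treatment, and senescent cells (titled Old) had received repeated sublethal exposures to hydrogen peroxide. The RNA of 3 samples of a condition was combined into 1 library, so the differences have no replicate check, p-values are not given, and a ratio sets one library against the other rather than the conditions. In such bulk RNA, fewer cells of a type and less RNA per cell cannot be told apart.

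The mitochondrial ribosome translates the few proteins that mitochondrial DNA encodes, all of them core parts of the respiratory chain and ATP synthase, so hepatocytes depend on it for oxidative metabolism. Its small subunit reads the messenger RNA, and its large subunit joins the amino acids and feeds the new chain to the inner membrane. Some of its proteins descend from the bacterial ribosome and others were added in mitochondria, and all of the proteins named here are made in the cytosol and imported.

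Depth was 28021941 gene-assigned reads for control and 25738075 for senescent cells. Ratios of senescent over control were scaled by TMM, a method that sets the bulk of genes to little difference, and are given as log2 ratios, in which 0.5 is a difference of 1.41-fold. Each ratio carries a 95% Clopper-Pearson interval, which reflects counting error alone and takes PCR copies, unmarked here, for separate molecules. Hepatocyte markers were mixed, and of 12 listed, 7 had a log2 ratio above 0 and 5 below. Alb (albumin) had 32076 and 2917 reads in control and senescent cells, Apoa1 2026 and 197, and Hnf4a 8187 and 7705. Krt8 had 119403 and 144783 reads and Krt18 40512 and 60941, while Trf had only 26 and 17 and Cps1 19 and 55. The macrophage markers Adgre1 and Clec4f had 0 reads in both libraries, while Cd14 had 5551 and 1879, Ptprc 27 and 76, Csf1r 15 and 40 and Cd68 34 and 40. Of 7 fibroblast or stellate markers only Col1a1 reached 10 reads, with 21 and 1, and none of 4 endothelial markers did. Of the cholangiocyte markers Krt19 had 22885 and 19177 reads, Krt7 3248 and 1026, Sox9 3602 and 4454 and Epcam 0 and 1, and the part of these cell type markers in the results was not tested.

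As a group, the 76 mRNAs differed little between the libraries. Their log2 ratios ran from -0.72 to 0.52, with a median of -0.08 and quartiles of -0.32 and 0.13. Of the 76, 68 (89.5%) lay within 0.5 of zero, against 58.1% of the 14383 genes with at least 10 reads (the tested genes) and 68.5% of genes with 500 or more reads. The standard deviation of their ratios was 0.28, against 0.90 over all tested genes and 0.64 over genes with 500 or more reads. At the study's threshold of 1.5 on the log2 scale, 0 members were higher and 0 were lower, where 2.71% of tested genes were higher and 5.60% were lower.

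At the smaller threshold of 0.5, with the interval leaving out 0, 1 member was higher (1.32%), where 14.8% of all tested genes and 15.5% of genes with 500 or more reads were. In the other direction 7 members were lower (9.21%), where 20.4% of all tested genes and 16.0% of the deeper genes were. Both shares lay below those backgrounds. Whether a counting interval leaves out 0 depends on depth, so both backgrounds are given for it. The interval lay above 0 for 19 members (25%), where it did for 34.0% of all tested genes and 44.5% of genes with 500 or more reads. It lay below 0 for 33 members (43.4%), where it did for 34.6% and 36.4%. It held 0 for the other 24 members (31.6%), against 31.4% and 19.2%. These counts rest on counting error alone, and with an assumed biological coefficient of variation of 0.4 no member passed the threshold of 0.5.

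The balance was slightly to the lower side. Of the members 44 had a ratio below 0 and 32 above, and the summed reads of all members had a log2 ratio of -0.06 after TMM scaling. By total count alone they had a CPM (counts scaled to a fixed library total) of 3831 in control and 3403 in senescent cells, a log2 ratio of -0.17. The size of this balance moved with the scaling. The median of the members was -0.19 with total-count scaling, which brought the median of all tested genes from -0.02 to -0.12. Relative to that median the members stood at -0.07 under both scalings, which is no check, since scaling moves well-covered ratios nearly alike. Genes with 500 or more reads had medians of 0.05 with TMM and -0.06 with total-count scaling, so the members lay further below that background. Under all 4 scalings tried, 44 members stayed below 0 and 21 above, and the sign of the other 11, whose ratios lay within 0.10 of zero, differed between scalings.

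**Figure D1:**
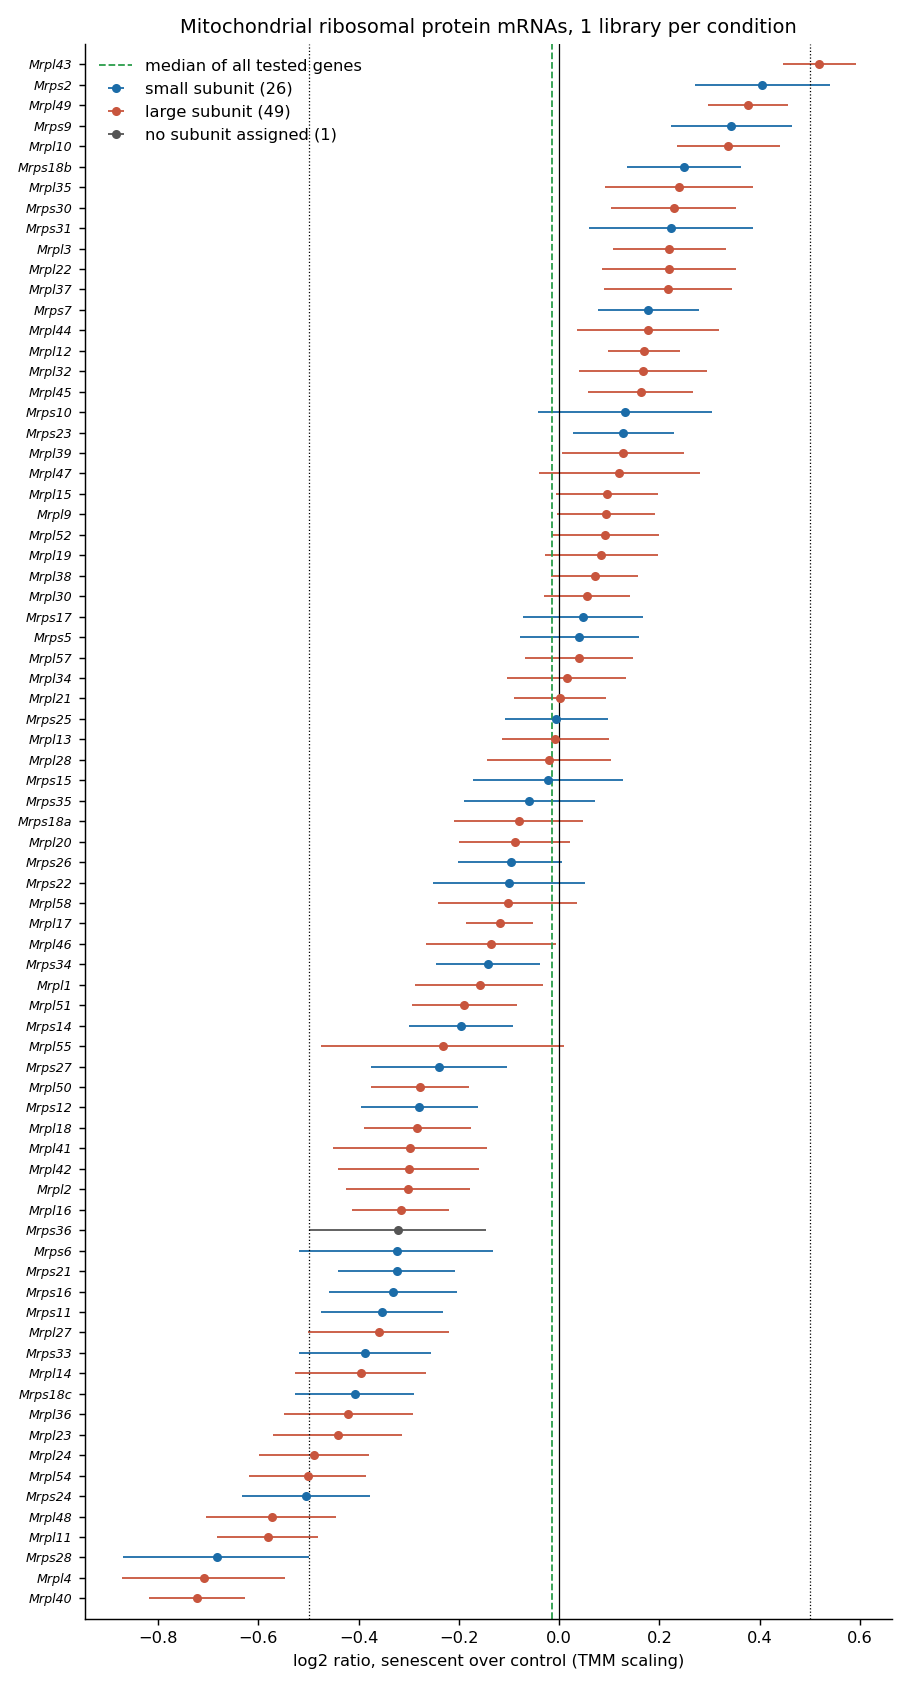
Log2 ratio of senescent over control (x axis, TMM scaling) for each of the 76 mitochondrial ribosomal protein mRNAs (y axis, ordered by ratio), with 1 library per condition. Points are coloured by subunit, bars are 95% counting intervals, dotted lines mark 0.5 on either side of 0, and the dashed line is the median of all tested genes; 68 members lie within the dotted lines.

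The lowest ratio belonged to Mrpl40, a mitochondria-specific protein of the central protuberance, the part of the large subunit that faces the head of the small subunit. Its gene lies on chromosome 16 from 18872018 to 18876862 (GRCm38, GENCODE M21). It had 2631 reads in control and 1360 in senescent cells, a log2 ratio of -0.72 (95% interval -0.82 to -0.63). Mrpl4, which lines the tunnel through which the new chain leaves, lies on chromosome 9 from 21002738 to 21008839 and had 899 and 469 reads (-0.71, interval -0.87 to -0.55). Mrps28, a protein of the small subunit encoded on chromosome 3 from 8802146 to 8923918, had 691 and 367 reads (-0.68, interval -0.87 to -0.50). The senescent levels of these genes were 0.606, 0.612 and 0.623 times the control levels. The other members lower past 0.5 were Mrpl11, Mrpl48, Mrpl54 and Mrps24, a small subunit protein near the entry of the messenger RNA with 1346 and 809 reads (-0.50, interval -0.63 to -0.38). Mrpl24 of the polypeptide exit lay just inside the threshold at -0.49, with 1805 and 1097 reads.

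Mrpl43, a mitochondria-specific protein of the large subunit on chromosome 19 from 45004829 to 45006442, was the member higher past 0.5. It had 2828 reads in control and 3457 in senescent cells, a log2 ratio of 0.52 (interval 0.45 to 0.59). With total-count scaling this ratio was 0.41, so the count of higher members depended on the scaling. Mrps2, a small subunit protein with a bacterial counterpart, had 851 and 961 reads (0.40, interval 0.27 to 0.54). Mrpl49 followed with 2444 and 2706 reads (0.38), and Mrps9 with 1078 and 1166 (0.34). In each of these genes the senescent reads outnumbered the control reads although the senescent library was the smaller, so the direction did not depend on the scaling. Mrps18b, Mrpl35 and Mrps30 had ratios of 0.25, 0.24 and 0.23.

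**Figure D2:**
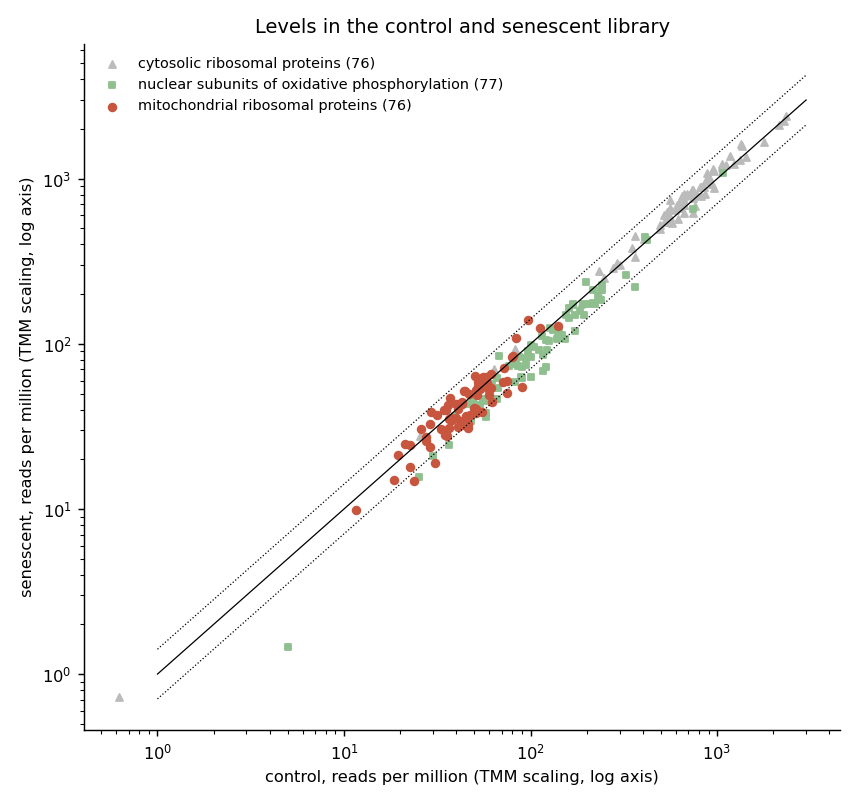
CPM (TMM scaling, log axes) in the control library (x axis) and senescent library (y axis) for the 76 mitochondrial ribosomal protein mRNAs, 77 nuclear subunits of oxidative phosphorylation and 76 cytosolic ribosomal proteins. The solid line marks equal levels and the dotted lines log2 ratios of 0.5 either way; the mitochondrial ribosomal proteins lie along the solid line, below most cytosolic ribosomal proteins in level.

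All 76 members were well covered. Control reads ran from 336 for Mrpl55 to 4065 for Mrpl17, with a median of 1288, and senescent reads from 244 to 3457, with a median of 1013. Since Mrpl55 had the fewest reads, no member lay near the limit of 10 reads. Outside it stood Mrpl53, a protein of the stalk region, with 0 reads in both libraries. Its coding transcript of 695 bases is wholly contained, at 100% identity, in Gm42688, an annotated gene on the same strand that had 244 and 224 reads, so the reads of this locus cannot be split between them. Mrpl33 was not analysed here.

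Compared per kb of annotated exon, control levels were highest for Mrpl12, at a TMM-scaled CPM of 72.9 per kb, followed by Mrpl34, Mrps21, Mrpl54 and Mrpl43 at 70.4, 68.7, 66.4 and 64.0. The lowest levels were those of Mrps10, Mrps35 and Mrpl47 at 2.4, 4.2 and 5.1. This order depended strongly on which length was used. Per kb of the median coding transcript, chosen as an alternative after seeing the data, Mrpl17 led at 188.1 and only Mrps21 of the 5 highest stayed among the 5 highest.

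The proteins of the small subunit (26 members) had a median log2 ratio of -0.10, with 17 below 0 and 9 above, and 0 of them were higher and 2 (7.69%), Mrps28 and Mrps24, lower past 0.5. The proteins of the large subunit (49 members) had a median of -0.02, with 26 below and 23 above, and 1 of them was higher (2.04%) and 5 were lower (10.2%) past 0.5. In both subunits these shares lay below the 14.8% and 20.4% of all tested genes. Here Mrps30 and Mrps18a were counted with the large subunit, where their proteins sit despite their names. Both subunits therefore held genes on either side, and their ranges overlapped almost fully. Small subunit proteins with a bacterial counterpart (16) had a median of -0.24 and those classed as found only in mitochondria (10) a median of -0.08. Mrps18b (0.25) was put in the second class although it is a paralogue of bacterial S18, so both medians depend on that choice. In the large subunit the corresponding medians were -0.01 (28) and 0.04 (19), and the latter was -0.07 with total-count scaling. Mrps18a and Mrpl55 of the large subunit were assigned to neither class.

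The stalk of the large subunit, which recruits the elongation factors, was split. Mrpl12, the multi-copy protein of the stalk that also binds the mitochondrial RNA polymerase, had 3249 and 3115 reads (0.17, interval 0.10 to 0.24). Mrpl10, its anchor on the ribosome, had 1467 and 1581 reads (0.34, interval 0.23 to 0.44). Mrpl11 at the stalk base had 2181 and 1243 reads (-0.58, interval -0.68 to -0.48), and Mrpl54 had 1592 and 959 (-0.50, interval -0.62 to -0.39). None of these 4 intervals held 0, 2 lay above it and 2 below.

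Proteins around the polypeptide exit (7 members) had a median of 0.13 (0.02 with total-count scaling), with 5 above 0 and 2 below. Mrpl45, which tethers the ribosome to the inner membrane, had 1520 and 1451 reads (0.16), and Mrpl44, which has a fold of the RNase III family, had 842 and 812 (0.18). Mrpl24 lay at the other end of this group. The 8 proteins of the central protuberance had a median of -0.21, with 6 below 0 and 2 above. Mrpl40 and Mrpl48, with 1339 and 767 reads (-0.57, interval -0.70 to -0.45), were its lowest members, and Mrpl58, a release factor homologue built into the ribosome, had 957 and 760 reads (-0.10, interval -0.24 to 0.04).

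Among members known for other roles, ratios lay on both sides of 0. The 3 vertebrate paralogues of bacterial ribosomal protein S18 differed from each other. Mrps18c had 1477 and 949 reads (-0.41, interval -0.53 to -0.29), Mrps18a had 1095 and 883 (-0.08, interval -0.21 to 0.05), and Mrps18b had 1272 and 1289 (0.25, interval 0.14 to 0.36). Their intervals did not overlap. Mrps12 of the decoding centre had 1453 and 1021 reads (-0.28), Mrps16, mutated in a childhood disorder of mitochondrial translation, 1247 and 845 (-0.33), and Mrps22, another disease gene, 804 and 640 (-0.10, interval -0.25 to 0.05). Mrpl3, mutated in a cardiomyopathy, had 1296 and 1287 reads (0.22), and Mrpl37 had 1000 and 991 (0.22). Mrpl41, linked to cell death pathways, had 843 and 585 reads (-0.30), and Mrpl36, the homologue of a very small bacterial protein, 1273 and 811 (-0.42). Mrps36, which is now known as a subunit of the 2-oxoglutarate dehydrogenase complex and not of the ribosome, had 654 and 446 reads (-0.32).

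Members encode short proteins, with a median of 198 residues and a range of 87 to 442, against a median of 464 over tested protein-coding genes. Within the family the ratio went with the length of the mRNA. The 38 members with coding transcripts of 405 to 1056 bases had a median log2 ratio of -0.30, with 29 below 0 and 9 above. The 38 with transcripts of 1134 to 6073 bases had a median of 0.09, with 15 below and 23 above. With total-count scaling these medians were -0.41 and -0.02, so the sign of the longer group changed. The difference between the groups cannot change this way, since scaling moves all well-covered ratios by nearly the same amount. All 7 members lower past 0.5 had coding transcripts under 1056 bases. Spearman's rho between ratio and coding transcript length was 0.45 over the 76 members and 0.12 over all tested protein-coding genes, and these genes share both libraries, so no p is given. Over all tested protein-coding genes the median ratio went from -0.09 in the shortest decile of length to 0.16 in the longest. With the ratios corrected for the median of all genes of like exonic length, 5 members instead of 7 were lower past 0.5. Mrps24 and Mrpl54 came to -0.35 each, while Mrpl48 came to -0.67. Exonic length, which counts all annotated exons, had a rho of 0.30 with the ratio over the members. The correction therefore does not show what part coding transcript length has. The authors' counts were not corrected for length or RNA integrity, and the part of library preparation in this relation was not tested.

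**Figure D3:**
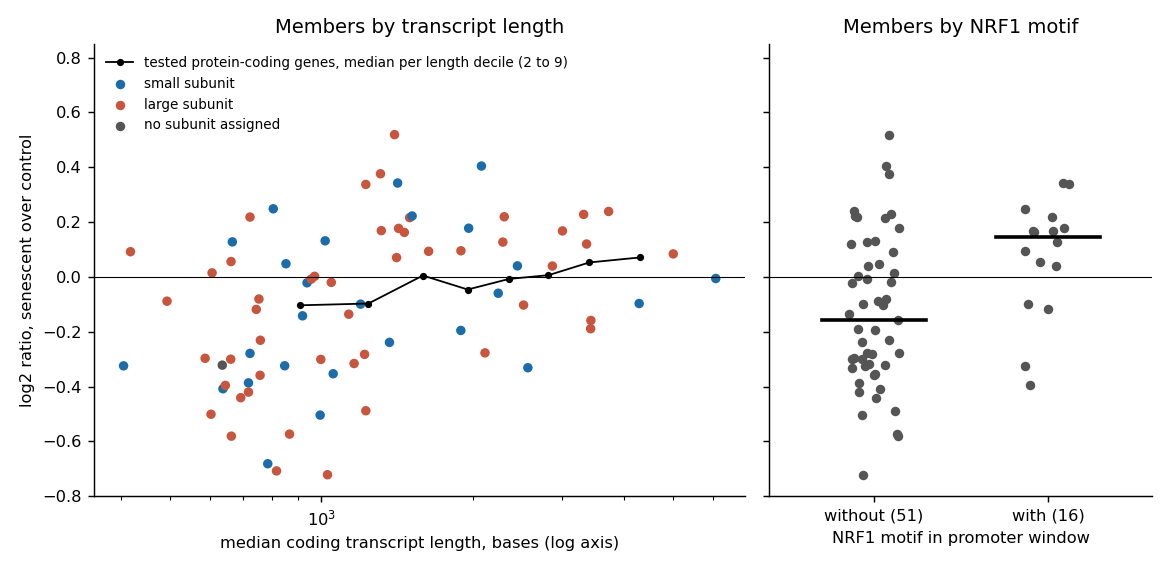
Left, log2 ratio of senescent over control (y axis) against median coding transcript length in bases (x axis, log scale) for the 76 members, coloured by subunit, with the median of tested protein-coding genes in length deciles 2 to 9 as a black line; the lowest members have short transcripts. Right, the same ratios for the 67 members with a promoter sequence, split by the presence of the NRF1 motif, with thick bars at the medians of -0.16 without (51 members) and 0.14 with the motif (16 members).

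Nuclear respiratory factor 1 (NRF1), the ETS factor GABP and YY1 are textbook activators of nuclear genes for mitochondrial proteins, and their binding motifs were looked for in promoters. RefSeq promoters of GRCm38.p6, from 250 bases before to 50 after the start, were found for 67 of the 76 members. The NRF1 motif GCGCANGCG, searched on both strands, stood in 16 member promoters (23.9%), against 14.1% of 9766 promoters of tested genes and 9.23% of all 16520 promoters. The ETS motif CCGGAAGT stood in 10 (14.9%, against 8.67% and 5.54%) and the YY1 motif AAGATGGCG in 8 (11.9%, against 3.23% and 2.03%). The E-box CACGTG, a site of Myc and Max, stood in 5 (7.46%, against 10.0% and 8.09%). A match is a description of letters and not a bound site.

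The promoters below are shown because they hold these motifs next to members on the higher side, or, for Mrps12, because the window is shared with a neighbour. Each is read 5′ to 3′ on the strand of the gene, ends before the annotated exons, and has the matches in capitals.
Mrpl10 (chr11:97041432-97041559, plus strand): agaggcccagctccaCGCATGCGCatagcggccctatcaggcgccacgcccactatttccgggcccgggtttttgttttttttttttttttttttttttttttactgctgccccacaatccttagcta
Mrpl12 (chr11:120484487-120484612, plus strand): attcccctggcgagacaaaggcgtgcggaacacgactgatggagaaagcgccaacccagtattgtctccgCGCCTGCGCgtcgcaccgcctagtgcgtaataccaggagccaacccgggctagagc
Mrpl22 (chr11:58171514-58171660, plus strand): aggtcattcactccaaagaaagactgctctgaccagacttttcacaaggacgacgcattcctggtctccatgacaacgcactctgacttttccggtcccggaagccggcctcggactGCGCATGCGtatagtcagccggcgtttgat
Mrpl45 (chr11:97315566-97315715, plus strand): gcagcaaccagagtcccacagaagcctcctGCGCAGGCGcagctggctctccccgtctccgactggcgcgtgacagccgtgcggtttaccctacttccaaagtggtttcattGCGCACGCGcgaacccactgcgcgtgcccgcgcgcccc
Mrpl43 (chr19:45006443-45006557, minus strand): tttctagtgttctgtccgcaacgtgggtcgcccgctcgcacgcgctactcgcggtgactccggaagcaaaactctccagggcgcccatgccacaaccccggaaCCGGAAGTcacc
Mrps12 (chr7:28741822-28741971, minus strand): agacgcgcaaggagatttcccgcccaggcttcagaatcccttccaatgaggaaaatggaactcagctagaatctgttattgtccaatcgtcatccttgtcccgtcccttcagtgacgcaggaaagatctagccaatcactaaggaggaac
The capitals are the NRF1 motif in Mrpl10, Mrpl12, Mrpl22 and Mrpl45, where Mrpl45 has it at 2 positions, and the ETS motif in Mrpl43. In Mrpl10 and Mrpl12 the match is on the opposite strand and is read here as its reverse complement. No match lies in the Mrps12 window.

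Members with the NRF1 motif had a median log2 ratio of 0.14, with 12 above 0 and 4 below, and the 51 without it a median of -0.16, with 17 above and 34 below. With total-count scaling the medians were 0.04 and -0.27, and 9 of the 16 stayed above 0. Over all tested genes with a promoter the corresponding medians were 0.07 and -0.02, a smaller difference in the same direction. Mrpl10, Mrps9, Mrps18b, Mrpl22, Mrpl44, Mrpl12 and Mrpl45 were among the carriers above 0, and Mrpl14 (1230 and 797 reads, -0.40) and Mrps21 (1476 and 1005 reads, -0.32) among those below. The 10 members with the ETS motif had a median of -0.14 and the 8 with the YY1 motif a median of -0.27, in each case lower than the members without it, while tested genes with either motif had higher medians (0.12 and 0.11) than those without (-0.02 and -0.01). The motif groups were set up with the ratios already known, and how the motifs relate to transcript length was not tested.

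The mRNAs of these factors and of other regulators of mitochondrial genes were measured too. Nrf1 had 994 control and 1286 senescent reads (0.60) and Gabpa, the DNA-binding subunit of GABP, 2172 and 2374 (0.36). Yy1 had 2973 and 2798 reads (0.14), and Esrra, the estrogen-related receptor, 5242 and 5163 (0.21). Myc, which activates genes for ribosomes, had 2239 and 4382 reads (1.20), and its partner Max 1247 and 1645 (0.63). The coactivator Pprc1 had 2821 and 4861 reads (1.01), whereas its relative Ppargc1a (PGC-1alpha) had 105 and 16 (-2.42). Of the 12 regulators listed, 4 were higher (33.3%, against 14.8% of all tested genes) and 2 lower (16.7%, against 20.4%) past 0.5, and among the lower ones Mycn had 50 and 5 reads.

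Many members share their start region with another gene. A protein-coding gene started in the opposite direction within 1000 bases for 18 members (23.7%), against 10.5% of tested protein-coding genes. After TMM scaling, in 11 of the 18 pairs the ratios had the same sign and in 7 they did not. The share of same-sign pairs among other genes is not given, so this count has no background. Some signs depended on the scaling, as Mrpl57, Mrps5 and Mrpl30 (0.04, 0.04 and 0.06) lay below 0 with total-count scaling. The neighbours below were chosen after their values were seen. Mrpl40 and Hira, a histone chaperone gene whose start lies 175 bases away, had ratios of -0.72 and -0.50, with 694 and 417 reads of Hira. Mrps12 and Sars2, the mitochondrial seryl-tRNA synthetase 172 bases away, had ratios of -0.28 and -0.62. Mrpl49 and Fau, the precursor of a cytosolic ribosomal protein, had ratios of 0.38 and 0.19. The opposite case was Mrps18c and the DNA helicase gene Helq, 29 bases apart, with ratios of -0.41 and 0.43. A shared start region thus went with shared and with opposite signs.

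**Figure D4:**
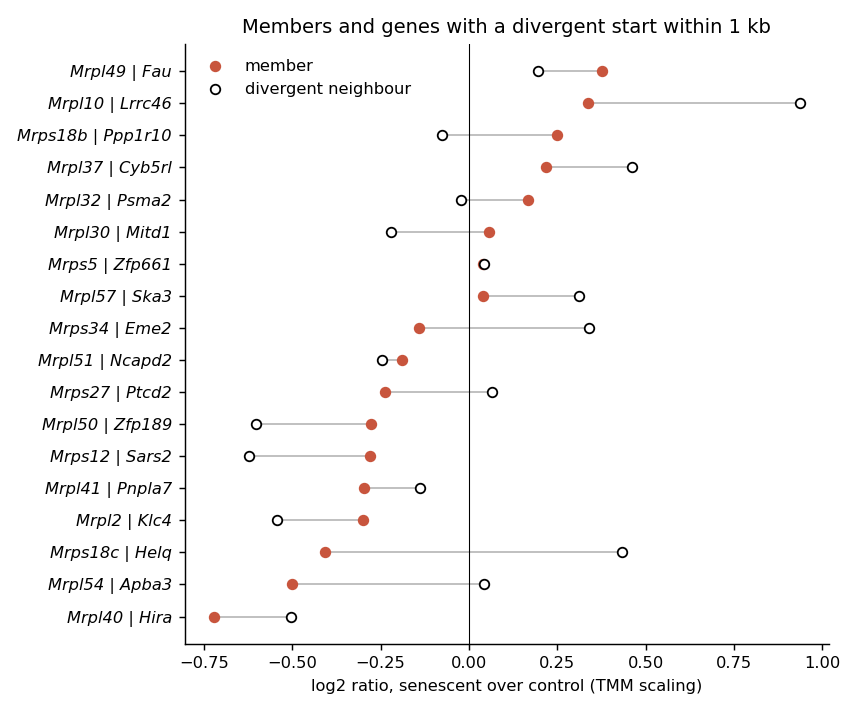
Log2 ratio of senescent over control (x axis) of 18 members (filled points) and of the protein-coding gene that starts in the opposite direction within 1 kb (open points), 1 pair per line. In 11 pairs both points lie on the same side of 0; the open point of Lrrc46 rests on 5 control and 9 senescent reads.

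Exons of other genes overlap several members, and the use of strand in counting was not given in the sources used here. On the opposite strand 27 members (35.5%) had such an overlap, against 32.0% of tested protein-coding genes, and on the same strand 6 (7.89%, against 8.38%). Mrpl43 overlaps Twnk, the gene of the mitochondrial DNA helicase, which had 2133 and 2974 reads (0.71), so without strand part of the higher count of Mrpl43 and that of Twnk cannot be told apart. Mrpl48 overlaps Rab6a (7287 and 7798 reads, 0.33) and Mrps24 overlaps Urgcp on the same strand (1483 and 1704 reads, 0.43), and both members differed in the other direction from the overlapping gene. Mrpl36 overlaps Ndufs6 of complex I, with 1912 and 1143 reads (-0.51). The 45 members without any overlap had a median of -0.08. Of them 5 were lower (11.1%) and 0 higher past 0.5, against 20.4% and 14.8% of all tested genes. Near-identical pseudogenes (at least 95% over 200 bases) exist for 18 members. Of 22 such pseudogenes 15 were in the table, with at most 20 reads, and the others had no count. Whether members lost reads that match a pseudogene equally well was not tested.

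The remaining genes of mitochondrial translation included larger single differences. Of the 5 mitochondrial ribosomal proteins with other names, 1 was higher (20%) and 0 lower past 0.5, against 14.8% and 20.4% of all tested genes. The higher one was Ptcd3 of the small subunit, with 2108 and 2977 reads (0.73). Chchd1 (2028 and 1386 reads, -0.32) and Dap3 (2640 and 1861 reads, -0.27) had the lowest ratios. Of 29 genes for ribosome assembly and rRNA modification, 1 was higher (3.45%) and 2 were lower (6.90%) past 0.5, both below the shares of all tested genes. The median of these 29 was 0.10, and -0.01 with total-count scaling. Afg3l2, a protease that matures a large subunit protein, had 2476 and 3263 reads (0.63), and Mrm1, an rRNA methyltransferase, 454 and 510 (0.40). The 2 lower genes were the rRNA methyltransferases Tfb1m, with 240 and 111 reads (-0.88), and Nsun4, with 526 and 246 (-0.86), both of which act on the RNA of the small subunit.

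Of 14 translation factors 1 was higher (7.14%) and 3 were lower (21.4%) past 0.5, against 14.8% and 20.4% of all tested genes. Their median was -0.07. Lrpprc, which stabilises mitochondrial mRNA, had 2587 and 3730 reads (0.76), while the release factor gene Mtrf1 had 128 and 61 (-0.83) and Guf1, a back-translocase, 928 and 505 (-0.65). The 20 genes that charge mitochondrial tRNA were more spread, with 2 higher (10%), 5 lower (25%) and a median of -0.18. Lars2, the leucyl-tRNA synthetase, had 21129 and 36622 reads (1.02), the most reads of any gene in that list. Next in reads was Iars2, with 4018 and 2955 (-0.21), so Lars2 stood far apart from the others in level. Near-identical sequences were searched for members only, and whether reads of other transcripts are part of the Lars2 count was not tested. Mars2, the methionyl-tRNA synthetase, had 466 and 667 reads (0.75). At the other end, Gatb, a subunit of the glutamyl-tRNA amidotransferase, had 337 and 144 reads (-0.99). Of 16 genes for mitochondrial transcription and RNA processing 2 were higher (12.5%) and 0 lower, with a median of 0.16 (0.05 with total-count scaling). The highest were Trmt10c, a part of mitochondrial RNase P (654 and 907 reads, 0.70), and Mtpap, the poly(A) polymerase (765 and 993 reads, 0.61).

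The mRNAs that the mitochondrial ribosome translates, 12 tested mRNAs of mitochondrial DNA, had a median of -0.04. Of them 2 were higher (16.7%) and 1 lower (8.33%) past 0.5, against 14.8% and 20.4% of all tested genes. Their share of all reads was 2.78% in control and 2.63% in senescent cells. Their nuclear partners, 77 subunits of oxidative phosphorylation, had a median of -0.24, with 69 below 0, 0 higher and 15 lower past 0.5. In this list 19.5% were lower past 0.5, against 9.21% of the mitochondrial ribosomal proteins and 20.4% of all tested genes. The lowest was Ndufb2 of complex I, with 145 and 36 reads (-1.75), and the highest Sdhb of complex II, with 1976 and 2091 (0.31). Cytosolic ribosomal proteins, 76 genes, had a median of 0.11 (0.004 with total-count scaling), a standard deviation of 0.13 and 0 genes past 0.5 in either direction. The standard deviation of the mitochondrial ribosomal set, 0.28, was wider than that of its cytosolic counterpart and like the 0.28 of the nuclear subunits of oxidative phosphorylation. Those nuclear subunits had a narrower range between quartiles (0.29, against 0.44), and 80.5% of them lay within 0.5 of zero. Of 24 proliferation genes 0 were higher and 5 lower past 0.5 (20.8%, against 20.4% of all tested genes), with a median of -0.05, 11 ratios above 0 and 13 below. Tyms had 1395 and 592 reads (-1.01) and Mki67 3322 and 1635 (-0.79) at one end, and Aurka had 455 and 511 (0.40) and Cdc20 754 and 738 (0.20) at the other. Whether cell growth state had a part in the members' ratios was not tested.

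**Figure D5:**
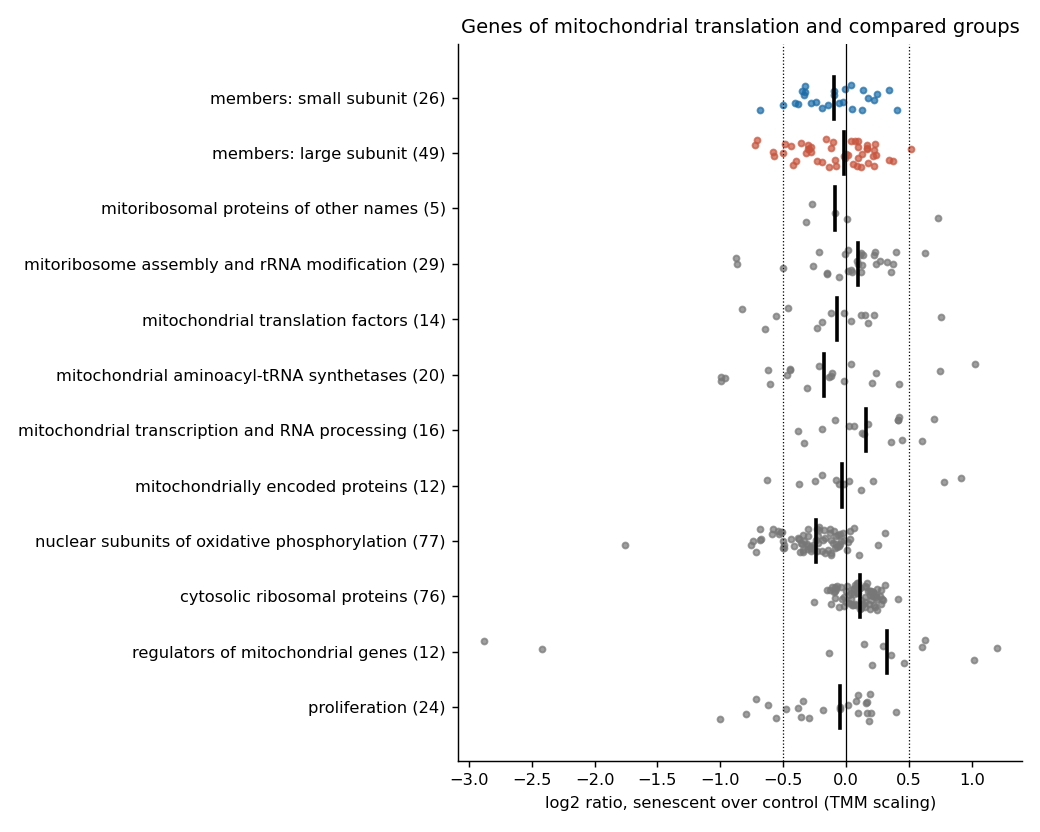
Log2 ratio of senescent over control (x axis, TMM scaling) of single genes (points) by group (y axis, number of tested genes in brackets), with thick bars at the medians. Members of the small and large subunit (medians -0.10 and -0.02) are tighter than the synthetases and regulators but wider than the cytosolic ribosomal proteins. Nuclear subunits of oxidative phosphorylation sit lower (-0.24) and cytosolic ribosomal proteins slightly higher (0.11).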

How the data were processed

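RNAseq was measured in 1 control and 1 senescent library. The authors deposited counts of reads per Ensembl gene, not normalized; their processing notes, per the labels, name CASAVA, STAR, DESeq2, edgeR and mm10, without roles, and the counting tool and annotation were not given in the sources used here. Each column's initial was matched to a sample title (O to Old, Y to Young), and 34490 of 35275 genes were given a symbol and position from GENCODE M21 (GRCm38).

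Counts were scaled with TMM (edgeR 4.0.16, R 4.3.3), and Python 3.11.15 gave the ratios and intervals, with a prior count of 1. Genes with at least 10 reads over both libraries were tested (14383). Pseudogenes were searched with blastn 2.17.0 and motifs in RefSeq promoters. The background of genes with 500 or more reads was added after seeing the data. The scripts were tested on simulated data. With 1 library per condition no count model test could be run. Alternatives were total-count, DESeq2 1.42.0 and upper-quartile scaling, other filters, prior counts and thresholds, an assumed coefficient of variation, and corrections for length, GC content and level.

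The members and lists were chosen with earlier results of these data known. Genes were named when among the 8 highest or 8 lowest ratios, the 5 highest or 3 lowest levels per kb, chosen for their role, or among the 2 highest or 2 lowest of a list. Mrpl14, Mrpl17, Mrpl22, overlapping genes and divergent neighbours were chosen after their values were seen. Some genes that this rule covers are left out of the text.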

Additional observations from a re-analysis of the deposited data

How the results depend on the processing

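The number of members higher past 0.5 was 1 and became 0 with total-count scaling, upper-quartile scaling, a threshold of 1, a coefficient of variation of 0.4 or a correction for level, and 2 with a correction for length. The number lower past 0.5 was 7. Scaling by total count gave 12, and scaling by the upper quartile gave 8. It became 5 with a correction for length and 6 with a correction for GC content or a prior count of 5. It was 0 with a threshold of 1 or a coefficient of variation of 0.4. The median of all tested genes moved too, from -0.02 to -0.12 by total count and to -0.05 by the upper quartile. Shares of all tested genes past 0.5 are not given for the alternatives. The changed counts therefore have no background and do not single out the members. The log2 ratio of the summed reads was -0.06, and became -0.17 with total-count and -0.10 with upper-quartile scaling. No result changed from one direction past a threshold to the other. The median of the members ran from -0.19 to -0.06 over the alternatives, that of the small subunit from -0.21 to -0.09, and that of the large subunit from -0.13 to 0.02, so the sign of the last depended on the setting. Of 35 members named by rule, 34 kept their sign under the alternatives run for single genes, the exception being Mrpl34, at 0.01. The causes of these moves were not tested, apart from the stricter thresholds and wider intervals, which by construction leave fewer genes past them.

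No paired analysis was possible because each condition had 1 library. The same holds for leaving out a library. Depth limited the members with few reads, such as Mrpl55 (336 and 244 reads), whose ratio of -0.23 had an interval of -0.48 to 0.01. The spread between cultures was not measured, since the pooling of 3 RNA samples hides it.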
